A study of Danio rerio with 8 samples.

Results

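Myelomonocytes and whole kidney marrow of zebrafish that lack miR-142-3p were compared on arrays. The comparison set the 2 samples titled 142ab-/- myelomonocytes against the 2 samples titled 142ab-/- WKMs, which are 4 of the 8 arrays of the series. All 4 came from miR-142-3p double knockout fish at 60 days post fertilization (dpf), so the deletion is shared by both sides and the comparison is between cell populations, not genotypes. The other 4 arrays held wild-type myelomonocytes and wild-type WKMs, 2 of each, also at 60 dpf, and served to ask where the same contrast differed without the deletion. Each sample pooled 4 kidneys and was 1 of 2 independent repeats. WKMs are whole kidney marrows from which erythrocytes were left out in the sort, and they therefore still hold myelomonocytes as well as lymphocytes, precursors and other cells. How the cells were gated, how the alleles were made, the fish's sex and whether myelomonocytes and WKMs came from the same kidneys are not stated in the labels.

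The zebrafish kidney is the site of adult blood formation, and its marrow lies between the tubules of the organ. Myelomonocytes are the granulocyte and monocyte lineages, which carry granule enzymes, an oxidase that makes superoxide and a cytoskeleton built for crawling. MicroRNAs pair with messenger RNAs and lower their translation or amount, and miR-142-3p is a microRNA found in most blood cell lineages. The arrays gave no named probe set for mir142a or mir142b, and the knockout was therefore not checked at the microRNA genes themselves.

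Every value below is a log2 probe set level, and every change is the mean log2 level in 142ab-/- myelomonocytes minus that in 142ab-/- WKMs with its standard error from limma. A gene was called where the Benjamini-Hochberg adjusted p over 13774 genes was under 0.05. The 2 arrays of 142ab-/- myelomonocytes correlated at r = 0.988 across these genes, the 2 of 142ab-/- WKMs at 0.992, and arrays of the 2 populations at 0.921 to 0.933. These points are genes, which are not independent replicates.

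The populations differed widely. Of 13774 genes, 6076 were called (44.1%), 2967 of them higher in 142ab-/- myelomonocytes (21.5%) and 3109 lower (22.6%). Changes of 2-fold or more were fewer (1367 genes, 9.92%) and mostly falls, with 351 genes higher (2.55%) and 1016 lower (7.38%). In 73.3% of genes both arrays of either population lay above both arrays of the other. The median change over all genes was 0.03. Every count of called list members below is to be read against the 21.5% higher and 22.6% lower of all genes. Without 142ab-/- WKMs replicate 2 the higher calls numbered 1806. When each array was centred on its median over the genes tested, which moved the median change of all genes by 0.14, there were 4583 higher and 2420 lower calls. The signs of the list medians given below held under that centring and under quantile normalization except where stated.

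Marker genes of the labelled cell types were read first. All lists were chosen with earlier results of these data known, so their counts describe the arrays and do not test the labels. Of 21 neutrophil genes, 17 were called higher, 1 lower and 3 were not called, with a median change of 0.51. The mean log2 level of the list was 11.54 and 11.48 in 142ab-/- myelomonocytes, against 11.06 and 11.03 in 142ab-/- WKMs, so the arrays of the populations did not overlap. mpx, the myeloperoxidase of neutrophil granules, stood at 13.12 and 13.09 in 142ab-/- myelomonocytes, against 12.77 and 12.78 in 142ab-/- WKMs, a change of 0.33 ± 0.09 (adjusted p = 0.0154), but its call was lost without either array of 142ab-/- WKMs (adjusted p up to 0.0663). lyz, lysozyme, had levels of 13.33 and 13.33 in 142ab-/- myelomonocytes, against 13.17 and 13.17 in 142ab-/- WKMs and was not called, with a change of 0.16 ± 0.09. Both genes were bright in both populations, and their levels differed by 1.26-fold for mpx and 1.12-fold for lyz.

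Larger changes were found in other members of the neutrophil list. cfl1l, a cofilin-like gene, had the largest rise of the list, at 1.24 ± 0.10 (adjusted p = 0.000101). The csf3r transcript, the receptor for granulocyte colony-stimulating factor, rose to 12.47 and 12.55 in 142ab-/- myelomonocytes, against 12.11 and 12.04 in 142ab-/- WKMs, a change of 0.43 ± 0.09. cebp1, a C/EBP factor of zebrafish granulocytes, stood at 11.55 and 11.35 in 142ab-/- myelomonocytes, against 10.65 and 10.67 in 142ab-/- WKMs and changed by 0.79 ± 0.11. alox5ap, which feeds arachidonate to 5-lipoxygenase, changed by 0.82 ± 0.09, scpp8 by 0.96 ± 0.11 and illr4, a lectin-type receptor gene, by 0.94 ± 0.10. The exception was padi2, a peptidylarginine deiminase, which changed by -1.5 ± 0.21. The neutrophil median was 0.51 in the wild-type contrast.

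Genes of monocytes, macrophages and dendritic cells mostly went the other way. Of 20 measured members, 12 were called lower, 3 higher and 5 were not called, with a median of -0.77 and 9 members at least 2-fold lower. The 3 higher calls became 1 without 142ab-/- myelomonocytes replicate 1 or 142ab-/- WKMs replicate 2. mpeg1.1, a perforin-like gene of macrophages, had levels of 9.31 and 8.57 in 142ab-/- myelomonocytes, against 11.20 and 11.25 in 142ab-/- WKMs, a change of -2.28 ± 0.22 (adjusted p = 0.000185). irf8, a transcription factor required for zebrafish macrophages, changed by -2.32 ± 0.29. The paired receptors for colony-stimulating factor 1 fell too, csf1rb by 1.31 and csf1ra by 1.00, and the antigen chaperone genes cd74b and cd74a by 1.51 and 1.21. c1qb, a subunit of complement C1q made by macrophages, fell by 1.13. Measured against WKMs of the same genotype, the arrays labelled myelomonocytes were therefore higher in most genes of the neutrophil list. They were lower in most genes of the monocyte and macrophage list. cd74a is also on the B cell list used below, and which cells gave these falls was not tested. In bulk samples fewer cells of a type and less RNA per cell cannot be told apart, here and in every list that follows.

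**Figure D1:**
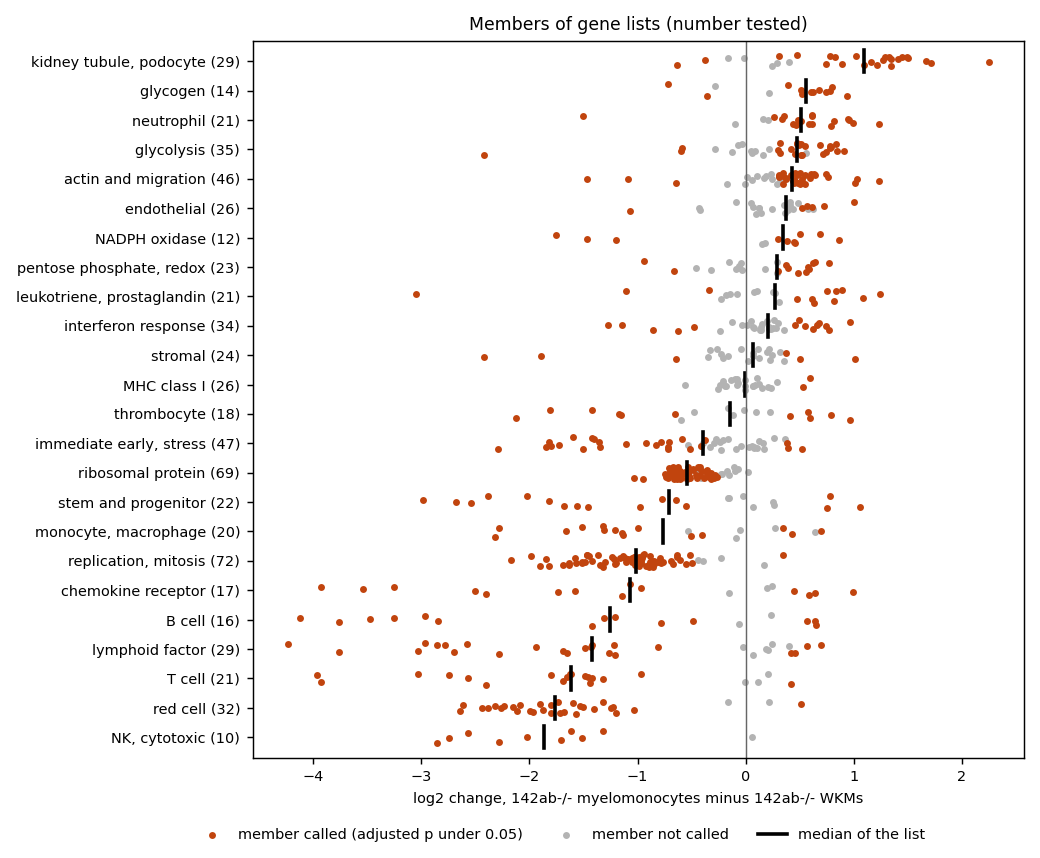
Log2 change of each measured member of 24 gene lists, 142ab-/- myelomonocytes minus 142ab-/- WKMs, with lists ordered by their median. Coloured points are called members, grey points are not called, and black bars are medians. The kidney list has the highest median at 1.1, and the NK and cytotoxic list the lowest at -1.87.

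Of the 15 largest falls in 142ab-/- myelomonocytes, 7 were on the B cell, T cell or lymphoid transcription factor lists. These lists overlap and hold 16, 21 and 29 of the 13774 genes tested. irf4b, a transcription factor of B and T lymphocytes, stood at 7.05 and 6.96 in 142ab-/- myelomonocytes, against 11.41 and 11.07 in 142ab-/- WKMs, a change of -4.23 ± 0.25 or 18.8-fold (adjusted p = 4.35e-05). cd37, a tetraspanin of mature B cells, had 5.26 and 5.0 in 142ab-/- myelomonocytes, against 9.41 and 9.09 in 142ab-/- WKMs, a fall to below 5.52, the median of all probe sets used here as the dim level, and was at least 13.3-fold lower when its low side was set at that level. il7r, the interleukin 7 receptor on which T cell development depends, had 6.32 and 5.06 in 142ab-/- myelomonocytes, against 9.64 and 9.66 in 142ab-/- WKMs, a change of -3.96 ± 0.34. In none of these genes did the populations overlap, but only genes without overlap could be among the 15.

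Chemokine receptors that guide lymphocytes into lymphoid tissue were among the same 15. ccr7 had log2 levels of 6.76 and 6.06 in 142ab-/- myelomonocytes, against 10.36 and 10.32 in 142ab-/- WKMs, a change of -3.93 ± 0.20, and cxcr5 changed by -3.25 ± 0.23 and cxcr4a, a receptor for Cxcl12 ligands, by -3.54 ± 0.20. pax5, the factor that fixes B cell identity, stood at 6.35 and 6.24 in 142ab-/- myelomonocytes, against 10.22 and 9.89 in 142ab-/- WKMs, a change of -3.76 ± 0.13 and a 13.6-fold fall. swap70a, whose mammalian relative acts in B cell signalling, changed by -3.47 ± 0.28. The other members of the 15 were frmpd4 at -4.16 ± 0.29, a scaffold protein gene known from neurons, sftpba at -3.46 ± 0.18, a relative of surfactant protein B, il11b at -3.34 ± 0.29, plaat1l at -3.27 ± 0.19, blf at -3.12 ± 0.14, a zinc finger gene of zebrafish blood, il15l at -3.10 ± 0.41 and crip2 at -3.06 ± 0.14. il11b, plaat1l, cxcr5 and il15l averaged below the dim level in 142ab-/- myelomonocytes, as cd37 did, so their place among the falls rests on fitted values. Against the dim level plaat1l was at least 8.77-fold lower, cxcr5 8.35-fold, il15l 7.82-fold and il11b 6.39-fold. Among the genes named below, cd79b, cd4-1, zap70, ifng1, rag2, vav3b, cxcr3.1, tlr9 and tlr20.2 were also dim in 142ab-/- myelomonocytes, with bounds between at least 2.23-fold lower for ifng1 and at least 6.22-fold lower for cd79b, and hnf4a was dim in 142ab-/- WKMs and at least 1.77-fold higher in 142ab-/- myelomonocytes.

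**Figure D2:**
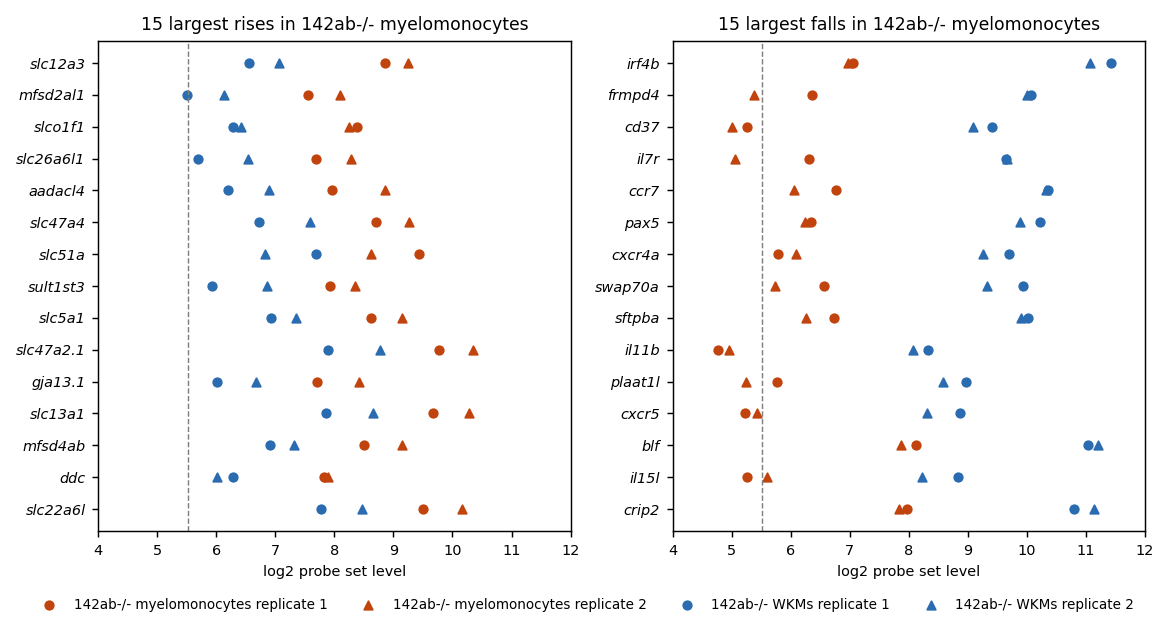
Log2 probe set level of the 15 genes with the largest called rises and the 15 with the largest called falls, for each of the 2 arrays of 142ab-/- myelomonocytes and of 142ab-/- WKMs. The dashed line is the dim level of 5.52. The populations do not overlap in any of the 30 genes, as their selection required, and the falls span a wider range of change than the rises.

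By list, 11 of 16 B cell genes were called lower and 3 higher, with a median of -1.26. Over all genes 22.6% were called lower and 21.5% higher, and the 3 higher calls were near the latter share. ebf1a, which works with pax5 in early B cells, changed by -2.97 ± 0.14, and cd79b and cd79a, the signalling chains of the B cell receptor, by -2.85 ± 0.19 and -1.31 ± 0.15. btk, a kinase of B cells that myeloid cells also use, was called higher at 0.64 ± 0.09. The list's mean log2 level was 8.38 and 8.22 in 142ab-/- myelomonocytes, against 9.90 and 9.64 in 142ab-/- WKMs.

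T cell genes were called lower in 17 of 21 members and higher in 1, with a median of -1.62. The 1 higher call was lost without 142ab-/- myelomonocytes replicate 1 or 142ab-/- WKMs replicate 2. tcf7, a factor of T lineage commitment, changed by -3.03 ± 0.14, zap70, a kinase of the T cell receptor, by -1.46 ± 0.10, and cd4-1, a coreceptor gene, by -1.80 ± 0.11. lck, the kinase that acts ahead of zap70, did not move with them: it stood at 9.21 and 8.68 in 142ab-/- myelomonocytes, against 9.04 and 8.86 in 142ab-/- WKMs and was not called, with a change of -0.00 ± 0.20 (adjusted p = 0.991). Of 10 genes of natural killer and cytotoxic cells, 9 were called lower and none higher, with the perforin gene prf1.1 at -2.57 ± 0.20, the factor gene tbx21 at -2.85 ± 0.17 and the interferon gamma gene ifng1 at -1.71 ± 0.16. At an unadjusted p under 0.05, limma likewise put 0 of the 10 higher, and no other tool was run.

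Some genes that cut and join antigen receptor genes, rag1, rag2 and dntt among them, belong to developing lymphocytes. rag1, which with rag2 forms the recombinase, stood at 6.48 and 6.20 in 142ab-/- myelomonocytes, against 9.12 and 8.73 in 142ab-/- WKMs, a change of -2.59 ± 0.15, and rag2 changed by -2.30 ± 0.17. dntt, which adds nucleotides at the joints, changed by -2.31 ± 0.15. The list also holds genes of DNA end joining, such as xrcc5 and prkdc, that are not particular to lymphocytes. Of its 14 members 7 were called lower by limma and none higher, 0 also at an unadjusted p under 0.05, with a median of -0.26. Among 29 lymphoid transcription factors 19 were called lower and 4 higher, with a median of -1.42, including bcl11aa at -2.70 ± 0.15 and eomesa at -2.28 ± 0.19.

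Red cell genes fell almost as a whole. Of 32 measured members, 29 were called lower and all 29 by at least 2-fold, against 7.38% of all genes, 1 was called higher and 2 were not called. The 1 higher call was lost without 142ab-/- myelomonocytes replicate 1 or without either array of 142ab-/- WKMs. The median change was -1.77 and the mean log2 level of the list was 9.12 and 9.08 in 142ab-/- myelomonocytes, against 10.63 and 10.88 in 142ab-/- WKMs. gata1a, the master factor of the red lineage, stood at 9.48 and 9.18 in 142ab-/- myelomonocytes, against 11.14 and 11.504 in 142ab-/- WKMs, a change of -1.99 ± 0.15 and a 3.99-fold fall. klf1, which turns on globin genes, changed by -2.11 ± 0.14, sptb, the beta spectrin of the membrane skeleton, by -2.16 ± 0.13, alad, an enzyme of haem synthesis, by -2.09 ± 0.14 and gfi1b by -2.62 ± 0.14. slc4a1a, the anion exchanger of the red cell membrane, had 11.25 and 11.18 in 142ab-/- myelomonocytes, against 12.71 and 12.85 in 142ab-/- WKMs and remained bright in both populations. Erythrocytes were left out of the WKMs in the sort, and which cells gave these red cell levels was not tested.

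Of 19 measured genes of iron transport, some of them also on the red cell list, 8 were called lower and 6 higher, or 3 higher without 142ab-/- WKMs replicate 1. Over all genes 22.6% were called lower and 21.5% higher. The iron transport median of -0.09 changed sign under centring on the genes tested. Transferrin receptor genes tfr2 and tfr1a changed by -2.61 ± 0.20 and -1.72 ± 0.11, steap3, which reduces iron in endosomes, by -2.32 ± 0.14 and the mitochondrial iron carrier gene slc25a37 by -1.73 ± 0.14. slc40a1, ferroportin, which exports iron, was called higher at 0.92 ± 0.10.

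Thrombocyte genes were split, with 6 of 18 called lower and 5 higher, or 3 higher without 142ab-/- myelomonocytes replicate 1 or 142ab-/- WKMs replicate 2. The shares of all genes were 22.6% lower and 21.5% higher. itga2b, the integrin chain that defines thrombocytes, stood at 6.18 and 5.58 in 142ab-/- myelomonocytes, against 7.87 and 7.51 in 142ab-/- WKMs, a change of -1.81 ± 0.20, and gp1bb, a subunit of the von Willebrand factor receptor, changed by -1.17 ± 0.17. Among 22 regulators of stem and progenitor cells 13 were called lower and 3 higher, with a median of -0.71. cd34 changed by -2.98 ± 0.26, mllt3, a chromatin factor of blood stem cells, by -2.68 ± 0.14, msi2a, an RNA-binding protein gene of progenitors, by -2.54 ± 0.14 and tal1, a factor of stem and red cells, by -2.39 ± 0.14. kita, a receptor for stem cell factor, and erg went up by 0.76 ± 0.10 and 1.06 ± 0.12.

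Genes of DNA replication and mitosis were lower in 142ab-/- myelomonocytes nearly throughout. Of 72 measured members 66 were called lower, 37 of them by at least 2-fold, 1 was called higher and 5 were not called. That 1 higher call was lost without any of the 4 arrays of 142ab-/- fish or either array of wild-type WKMs. The median was -1.01, and the mean log2 level of the list was 7.66 and 7.64 in 142ab-/- myelomonocytes, against 8.55 and 8.88 in 142ab-/- WKMs, with the 2 WKM arrays further apart than the 2 myelomonocyte arrays. ccnd1, a cyclin of G1 phase, changed by -2.17 ± 0.14, mybl2b, a factor that turns on mitotic genes, by -1.85 ± 0.15, aurkb, a mitotic kinase, by -1.64 ± 0.14 and mcm7, a helicase subunit at replication forks, by -1.52 ± 0.12. pcna, the sliding clamp of DNA polymerase, had 11.31 and 11.32 in 142ab-/- myelomonocytes, against 11.95 and 12.06 in 142ab-/- WKMs, a change of -0.69 ± 0.11.

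**Figure D3:**
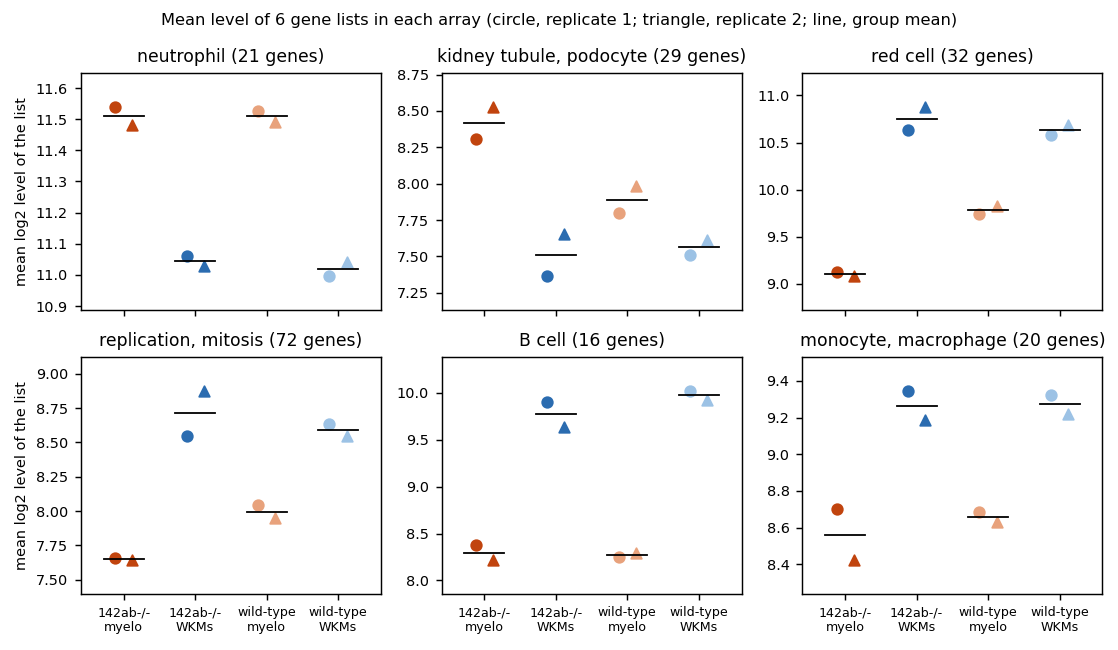
Mean log2 level of 6 gene lists in each of the 8 arrays, with circles for replicate 1, triangles for replicate 2 and lines for group means; myelo stands for myelomonocytes. The 2 populations of 142ab-/- fish do not overlap in any of the 6 lists. The kidney list is highest in 142ab-/- myelomonocytes, and the red cell and replication lists are lowest there.

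Of the 15 largest rises in 142ab-/- myelomonocytes, 2, slc12a3 and slc13a1, were on the kidney list, and further members were transporter genes. The kidney list holds 29 of the 13774 genes tested. slc12a3, the sodium chloride cotransporter of the distal tubule, stood at 8.86 and 9.25 in 142ab-/- myelomonocytes, against 6.55 and 7.06 in 142ab-/- WKMs, a change of 2.25 ± 0.45 or 4.77-fold (adjusted p = 0.00476). slco1f1, an organic anion transporter gene, had 8.38 and 8.25 in 142ab-/- myelomonocytes, against 6.28 and 6.43 in 142ab-/- WKMs, a change of 1.96 ± 0.14. slc5a1, a sodium glucose cotransporter, had 8.61 and 9.15 in 142ab-/- myelomonocytes, against 6.93 and 7.35 in 142ab-/- WKMs, and slc22a6l, of the organic anion exchanger family of proximal tubules, 9.50 and 10.16 in 142ab-/- myelomonocytes, against 7.77 and 8.47 in 142ab-/- WKMs, changes of 1.74 ± 0.23 and 1.71 ± 0.26. Replicate 2 lay above replicate 1 in both populations in 3 of these genes, and below it in 142ab-/- myelomonocytes for slco1f1. The populations did not overlap, as the selection of the 15 rises required.

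Among the 15 largest rises were further transporters, slc26a6l1 of an anion exchanger family at 1.87 ± 0.30, slc47a4 and slc47a2.1 of the multidrug and toxin extrusion family at 1.83 ± 0.29 and 1.73 ± 0.28, slc51a, part of an exporter of bile acids and steroids, at 1.76 ± 0.38, and mfsd2al1 and mfsd4ab of the major facilitator superfamily at 2.01 ± 0.23 and 1.71 ± 0.21. slc13a1, a sodium sulphate cotransporter, changed by 1.72 ± 0.55 (adjusted p = 0.0353), a call that was lost without any one of the 4 arrays of 142ab-/- fish (adjusted p up to 0.176) and with a trended, robust variance or array weights. The remaining members were enzymes and a connexin, with aadacl4, an arylacetamide deacetylase relative, at 1.86 ± 0.30, sult1st3, a sulphotransferase, at 1.74 ± 0.28, ddc, the aromatic amino acid decarboxylase, at 1.71 ± 0.30 and gja13.1 at 1.72 ± 0.27.

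Of 29 measured tubule, duct and podocyte genes, 22 were called higher, 16 of them by at least 2-fold against 2.55% of all genes, 2 were called lower and 5 were not called. The 2 lower calls became 1 without either array of 142ab-/- myelomonocytes, 142ab-/- WKMs replicate 2 or either array of wild-type WKMs. The median was 1.1. lrp2a and cubn, the endocytic receptors megalin and cubilin of the proximal tubule, changed by 1.5 ± 0.23 and 1.41 ± 0.22, and dab2, their adaptor, by 1.1 ± 0.13. slc12a1, the sodium potassium chloride cotransporter, changed by 1.35 ± 0.15, slc13a3, a dicarboxylate transporter, by 1.67 ± 0.26, clcnk, a chloride channel of the distal tubule, by 0.82 ± 0.12 and hnf4a, a factor of proximal tubule cells, by 1.02 ± 0.14. cdh17, a cadherin that marks the zebrafish renal tubule, had 10.51 and 10.71 in 142ab-/- myelomonocytes, against 9.13 and 9.66 in 142ab-/- WKMs, a change of 1.22 ± 0.20.

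The mean log2 level of the kidney list was 8.31 and 8.53 in 142ab-/- myelomonocytes, against 7.37 and 7.65 in 142ab-/- WKMs. In wild-type fish it was 7.80 and 7.98 in wild-type myelomonocytes, against 7.51 and 7.61 in wild-type WKMs. All 29 members were at or above the dim level in both arrays of 142ab-/- myelomonocytes, 28 and 27 of 29 in the 2 arrays of 142ab-/- WKMs. Such counts follow largely from the filter, which kept genes whose mean over the 8 arrays reached that level. It had set aside 3 of 32 kidney genes with a probe set as dim. The labels put both populations in the kidney, from which they were sorted, and describe neither as tubule cells. The part of tubule RNA in the other changes was not tested. Endothelial genes were less clear, with 5 of 26 called higher and 1 lower and a median of 0.38. Both counts are under the shares of all genes, 21.5% higher and 22.6% lower, as are the stromal counts given below. The 5 became 2 without 142ab-/- myelomonocytes replicate 1 or 142ab-/- WKMs replicate 2 and 13 without 142ab-/- myelomonocytes replicate 2, and the 1 lower call became 2 without 142ab-/- myelomonocytes replicate 1. tie1, an endothelial receptor kinase, changed by 1.00 ± 0.10, while kdrl, a receptor for vascular endothelial growth factor, had 8.66 and 7.57 in 142ab-/- myelomonocytes, against 7.72 and 7.35 in 142ab-/- WKMs and was not called. Stromal genes had 3 higher and 3 lower calls of 24, with 1 higher call without 142ab-/- WKMs replicate 2 and 5 lower without 142ab-/- myelomonocytes replicate 1.

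Functions of phagocytes were then followed. The oxidase that makes superoxide and its regulators had 7 of 12 genes called higher and 3 lower, with a median of 0.34. The shares of all genes were 21.5% higher and 22.6% lower, and the lower count was near its share. cyba, a membrane subunit, changed by 0.69 ± 0.11, ncf4, a cytosolic subunit, by 0.50 ± 0.09, rac2, the GTPase that switches the complex on, by 0.45 ± 0.09 and hvcn1, the proton channel that carries the compensating current, by 0.86 ± 0.15. The 3 that fell were vav3b at -1.75 ± 0.14 and vav2 at -1.19 ± 0.16, exchange factors for such GTPases, and rac1a at -1.47 ± 0.19.

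Enzymes that burn and store glucose were mostly higher. Of 35 glycolysis genes 22 were called higher and 3 lower, with a median of 0.48. The counts depended on single arrays, with 13 higher without 142ab-/- myelomonocytes replicate 1, and 11 higher and 1 lower without 142ab-/- WKMs replicate 2. gapdh changed by 0.91 ± 0.10, the hexokinase genes hk2 and hk1 by 0.79 ± 0.12 and 0.74 ± 0.12 and the phosphofructokinase genes pfkpb and pfkpa by 0.85 ± 0.10 and 0.78 ± 0.11, whereas pfkma, of the muscle type in mammals, fell by 2.42.

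Glycogen enzymes were called higher in 10 of 14 and lower in 2, with a median of 0.56. The 2 lower calls became 1 without either array of wild-type myelomonocytes, 142ab-/- myelomonocytes replicate 2 or 142ab-/- WKMs replicate 2. pgm1, which links glycogen to glycolysis, changed by 0.94 ± 0.12, gbe1b, the branching enzyme, by 0.78 ± 0.10 and pygb, a phosphorylase, by 0.74 ± 0.10. Of 23 genes of the pentose phosphate path and of glutathione, 10 were called higher and 2 lower, or 6 and 1 without 142ab-/- WKMs replicate 2 and 4 lower without 142ab-/- myelomonocytes replicate 1. Over all genes 21.5% were called higher and 22.6% lower. tkta, transketolase, and pgd, which yields NADPH, changed by 0.62 ± 0.11 and 0.58 ± 0.11, and sod1, which removes superoxide, fell by 0.94.

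Actin and migration genes gave 32 of 46 higher and 3 lower, with a median of 0.43. Without 142ab-/- WKMs replicate 2 the higher calls numbered 19. vaspa, which extends actin filaments, changed by 1.03 ± 0.11, myh9a, a non-muscle myosin, by 1.01 ± 0.09 and the Arp2/3 complex genes actr2b and arpc1b by 0.74 ± 0.10 and 0.60 ± 0.10. coro1b fell by 0.64. Lipid mediator genes had 9 of 21 called higher and 3 lower, against 21.5% higher and 22.6% lower of all genes. pla2g4ab, the phospholipase that frees arachidonate, changed by 1.24 ± 0.14, alox5a, the 5-lipoxygenase, by 0.63 ± 0.09, ptgs2b, a cyclooxygenase, by 0.75 ± 0.10 and hpgd, which inactivates prostaglandins, by 1.09 ± 0.10. A second lipoxygenase gene, alox5b.3, fell by 3.05.

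Myeloid transcription factors and receptors were mixed, with 17 of 38 called lower and 8 higher, or 5 higher without 142ab-/- WKMs replicate 2. The shares of all genes were 22.6% lower and 21.5% higher. cebpa, a factor of granulocyte commitment, changed by 0.81 ± 0.11, and spi1b, which encodes PU.1, had 12.42 and 12.34 in 142ab-/- myelomonocytes, against 12.17 and 12.08 in 142ab-/- WKMs and was not called (adjusted p = 0.0521). The immediate early factor genes egr2b and egr1 fell by 2.29 and 1.82. Over the 47 immediate early and stress genes 22 were called lower and 3 higher, with a median of -0.40. The lower calls were 14 without 142ab-/- myelomonocytes replicate 1 and 13 without 142ab-/- WKMs replicate 1, and the higher calls were 5 without 142ab-/- WKMs replicate 1 and 0 without replicate 2.

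Of 17 chemokine receptors 10 were called lower and 4 higher, or 1 higher without 142ab-/- WKMs replicate 2, and the median of -1.07 changed sign when only genes above the 75th percentile of level were kept. The shares of all genes were 22.6% lower and 21.5% higher, and the 4 higher receptor calls were near the latter share. Besides the receptors named above, cxcr3.1 changed by -2.51 ± 0.22 and ccr9a by -0.97 ± 0.10. Of 23 genes of the Toll pathway 7 were called lower and 6 higher, near the shares of all genes (22.6% lower and 21.5% higher). tlr9 and tlr8b, sensors of nucleic acids in endosomes, changed by -2.48 ± 0.19 and -2.34 ± 0.22, tlr20.2 by -2.40 ± 0.16 and tlr1 and tlr2, partners in lipoprotein sensing, by -1.52 ± 0.20 and -1.27 ± 0.19, whereas tlr5a and tlr5b, receptors of flagellin, changed by 1.25 ± 0.11 and 0.75 ± 0.10.

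The integrins, with 6 of 19 called lower and 5 higher, were also near those shares of 22.6% and 21.5%. itgb1a, the shared beta chain, fell by 2.15 and itga4, its lymphocyte partner, by 1.53, while itgb2, the beta chain of leukocyte integrins, changed by 0.58 ± 0.10 and itgav by 0.73 ± 0.10. The signs of the Toll and integrin medians, at -0.01 and -0.03, changed under centring on the genes tested. The integrin median also changed sign under quantile normalization, to 0.04. The platelet activating factor receptor gene ptafr, which draws in granulocytes, changed by 0.90 ± 0.11, and c5ar1, the receptor of a complement fragment, by 0.72 ± 0.09. ciita, the activator of MHC class II genes, fell by 2.31. Of 34 interferon response genes 9 were called higher and 5 lower, or 3 lower without 142ab-/- myelomonocytes replicate 2, against 21.5% higher and 22.6% lower of all genes. Among them were ifngr1, which encodes a receptor for interferon gamma, at 0.97 ± 0.18 and isg20 at -1.27 ± 0.11.

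Genes of the protein-making machinery were slightly lower. Of 69 ribosomal protein genes 59 were called lower by limma and none higher, 0 also at an unadjusted p under 0.05, with a median of -0.54 and a single member, rps12 at -1.03 ± 0.13, past 2-fold. With quantile normalization 49 were called lower and with centring on the genes tested 47. Of 58 translation initiation genes 26 were called lower and 2 higher, against 22.6% lower and 21.5% higher of all genes. The lower calls numbered 17 without 142ab-/- myelomonocytes replicate 2 or 142ab-/- WKMs replicate 1 and 15 without 142ab-/- WKMs replicate 2, and the higher calls numbered 0 or 1 without any one of the 8 arrays. eif2ak1, the haem-regulated kinase of red cell precursors, fell furthest among those named, by 1.68. Subunits of oxidative phosphorylation had 6 of 85 called in each direction, fewer than the 21.5% and 22.6% of all genes, and without 142ab-/- WKMs replicate 2 the lower calls numbered 0 and the higher 2. Without 142ab-/- myelomonocytes replicate 2 the higher calls were 3, and without 142ab-/- WKMs replicate 1 they were 1.

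The same contrast in wild-type fish shares no arrays with this one. Both came from 1 fit with a variance per gene shared over all 8 arrays, so their calls are not independent. The wild-type contrast called 4900 of 13774 genes (35.6%), 2134 of them higher (15.5%). By 2-fold or more, 181 were higher (1.31%) and 679 lower (4.93%). Without single arrays that count ran between 2950 and 5293, and it moved past 1.5 times without wild-type myelomonocytes replicate 2 (2950), wild-type WKMs replicate 1 (3024) and wild-type WKMs replicate 2 (3099). Across genes the changes of the 2 genotypes correlated at Pearson's r = 0.84, a description over genes of the same fish populations with shared probes. Genes called at 2-fold or more in both genotypes and in the same direction numbered 624, which is 45.7% of the 142ab-/- genes and 72.6% of the wild-type genes, and 0 were called in opposite directions by limma, 0 also at unadjusted p under 0.05 in both. The overlap was larger among falls, with 535 genes or 52.7% of the 142ab-/- falls and 78.8% of the wild-type falls, and 89 among rises, or 25.4% and 49.2%.

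Side by side, some medians of the 2 genotypes were close and others were not. The T cell median was -1.62 in 142ab-/- fish and -1.62 in wild-type fish, and the neutrophil medians were 0.51 and 0.51. The red cell median was -1.77 in 142ab-/- fish and -0.89 in wild-type fish, the replication and mitosis medians were -1.01 and -0.52, and the kidney medians 1.1 and 0.37. The endothelial median was the smaller in 142ab-/- fish, 0.38 against 0.71 in wild-type fish, with 5 and 12 of 26 genes called higher. In 142ab-/- fish 22 of 29 kidney genes were called higher and 16 were called at 2-fold or more, against 3 and 0 in wild-type fish. There slc12a3 changed by 1.01 ± 0.45 without being called, the 1 member past 2-fold at any p. The difference of the changes, 142ab-/- minus wild-type, was below 0 in 31 of 32 red cell genes and 70 of 72 replication genes and above 0 in 27 of 29 kidney genes, where 7487 of all 13774 genes were above 0. In limma's test of the difference 2 red cell, 0 replication and 0 kidney genes were called, and at an unadjusted p under 0.05 the numbers were 25, 33 and 11, against 14% of all genes. No list was tested as a whole.

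The groups' own levels show where such differences lay. The red cell list averaged 9.12 and 9.08 in 142ab-/- myelomonocytes and 10.63 and 10.88 in 142ab-/- WKMs, against 9.74 and 9.82 in wild-type myelomonocytes and 10.58 and 10.69 in wild-type WKMs. The replication and mitosis list averaged 7.66 and 7.64 in 142ab-/- myelomonocytes, against 8.55 and 8.88 in 142ab-/- WKMs and, in wild-type fish, 8.05 and 7.95 in wild-type myelomonocytes, against 8.64 and 8.54 in wild-type WKMs. The 2 WKM groups overlapped in both lists, and the myelomonocytes of 142ab-/- fish were the lower of the 2 myelomonocyte groups. The kidney list was higher in 142ab-/- than in wild-type myelomonocytes in both arrays.

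The difference of the changes was called for 38 genes (0.276%), 18 of them positive and 20 negative, against 1924 at an unadjusted p under 0.05. The changes had opposite signs in the genotypes in 18 of the 38. This count depended on single arrays: it was 25 without 142ab-/- myelomonocytes replicate 1, 11 without replicate 2, 7 and 6 without 142ab-/- WKMs replicate 1 and 2, 1 without either array of wild-type myelomonocytes and 1 and 2 without wild-type WKMs replicate 1 and 2. hpdb, an enzyme of tyrosine breakdown, had the largest fitted difference, 3.77 ± 0.21 (adjusted p = 0.00115). Its levels were 4.29 and 4.56 in 142ab-/- myelomonocytes, against 4.40 and 4.29 in 142ab-/- WKMs, both below the dim level, while wild-type fish had 4.73 and 4.92 in wild-type myelomonocytes, against 8.68 and 8.36 in wild-type WKMs. Only wild-type WKMs of the 4 groups were above the dim level, and hpdb passed the filter on dim genes through them, so the fitted size is not a measured one. In wild-type fish it was at least 8-fold lower in myelomonocytes against the dim level, and for 142ab-/- fish no fold is given. il11b, a cytokine of the interleukin 6 family, had 4.77 and 4.95 in 142ab-/- myelomonocytes, against 8.32 and 8.07 in 142ab-/- WKMs, whereas wild-type fish had 6.59 and 5.80 in wild-type myelomonocytes, against 5.98 and 6.68 in wild-type WKMs, a difference of -3.20 ± 0.41 (adjusted p = 0.0349).

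slco1f1 changed by 1.96 ± 0.14 in 142ab-/- fish and by 0.23 ± 0.14 in wild-type fish, the only one of the 15 largest rises whose difference was called (adjusted p = 0.0268). gypc, a glycophorin of the red cell membrane, changed by -2.64 ± 0.23 in 142ab-/- fish and by -0.40 ± 0.23 in wild-type fish (adjusted p of the difference = 0.0472). The call of this difference was lost with the mean of the gene's probe sets and with quantile normalization. socs1b, an inhibitor of cytokine signalling, changed by 0.77 ± 0.17 in 142ab-/- fish and by -1.13 ± 0.17 in wild-type fish, where its myelomonocyte arrays were below the dim level (adjusted p = 0.0353). Its call in 142ab-/- fish was lost without 142ab-/- WKMs replicate 2 (adjusted p = 0.0599). foxp3a, a factor of regulatory T cells, stood at 5.64 and 5.85 in 142ab-/- myelomonocytes, against 5.57 and 5.5 in 142ab-/- WKMs and was not called, and in wild-type fish it had 5.82 and 5.61 in wild-type myelomonocytes, against 7.14 and 6.93 in wild-type WKMs (adjusted p of the difference = 0.0268). The calls of the difference for il11b and slco1f1 were lost without any one of the 8 arrays, those for gypc, socs1b and foxp3a without any one of 7, and that for hpdb was kept without each array.

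**Figure D4:**
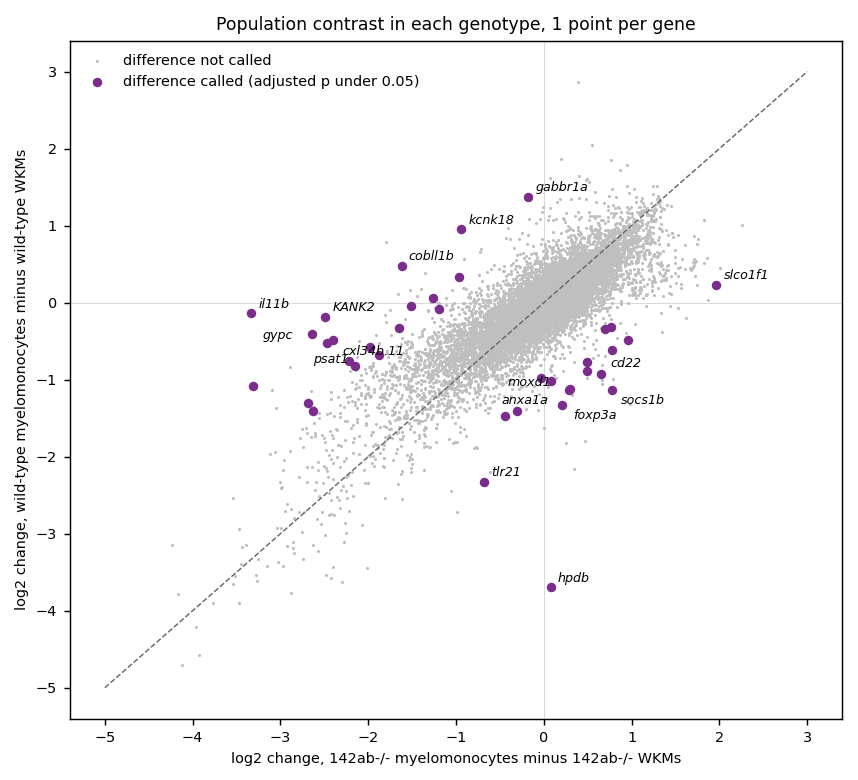
Log2 change between myelomonocytes and WKMs in 142ab-/- fish (horizontal) and wild-type fish (vertical), 1 point per gene for 13774 genes, with the dashed line marking equal changes. Coloured points are the 38 genes whose difference was called, and 16 of them are named. Points follow the line (r = 0.84), and hpdb lies furthest from it.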

How the data were processed

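Gene expression was measured in sorted zebrafish kidney cells on 8 one-colour Affymetrix whole-transcript arrays, labelled from 200 ng of total RNA per the labels' protocols. The table the authors deposited holds log2 values for 75212 probe sets, a scale read from their range, while their background correction and normalization are not stated in the sources used here. Array number, not depth, limits precision. Values were used as deposited. The platform annotation gave 20806 probe sets 1 gene symbol, 855 several and 53551 none. Of the first, 20323 matched the RefSeq gene table of assembly GRCz12tu by Entrez ID, which updated 1 symbol. For each of 19260 symbols the brightest probe set by mean was kept, and the 5486 with a mean under 5.52, the median of all probe sets, were set aside as dim.

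limma 3.58.1 in R 4.3.3 fitted 1 mean per group over all 8 arrays (4 residual and 4.00 prior degrees of freedom), and its two-sided tests were adjusted by Benjamini-Hochberg over 13774 genes. The fit was tested on simulated data. The contrasts were myelomonocytes minus WKMs in 142ab-/- fish, the same in wild-type fish, and their difference. p-values rest on the spread between the independent repeats of 4 pooled kidneys. That spread was pooled per gene over the 4 groups, wild-type arrays included, and drawn towards a value shared across genes. With only the 4 arrays of 142ab-/- fish, 5206 genes were called in their contrast.

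The members and the 39 gene lists were chosen with earlier results of these data known. Lists overlap and are described by counts and medians only. A naming rule took the 15 largest called rises and falls with non-overlapping arrays and more than a clone name, and the 8 largest called differences in each direction. It also took in each list the members of smallest p, at most 8, and 23 preset genes, of which hbba1, ighm and mki67 had no tested probe set. The rule gave 327 genes, and the text prints only some of the lists and list members. Alternatives changed the filter, probe set choice, scaling, variance model, replicate block, arrays included and fold threshold. Probe sequences and promoters were not analysed here.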

Additional observations from a re-analysis of the deposited data

Results flagged for a closer look

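The changes between myelomonocytes and WKMs differed between the genotypes for the genes given here, by limma's test of the difference itself (142ab-/- minus wild-type, log2, ± SE). They are the 8 largest positive and 8 largest negative called differences among genes with more than a clone name. The positive ones were hpdb at 3.77 ± 0.21, socs1b at 1.9 ± 0.24, slco1f1 at 1.73 ± 0.20, tlr21, a Toll-like receptor gene, at 1.64 ± 0.18, cd22, a B cell lectin gene, at 1.59 ± 0.21, foxp3a at 1.53 ± 0.18, anxa1a, an annexin gene, at 1.43 ± 0.18 and moxd1 at 1.42 ± 0.20. For hpdb, foxp3a, anxa1a and moxd1 the change in 142ab-/- fish alone was not called. hpdb averaged above the dim level in wild-type WKMs alone, and socs1b was dim in wild-type myelomonocytes, so neither fitted difference is a measured size. foxp3a was close to that level outside wild-type WKMs, so its size is uncertain too.

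The negative ones were il11b at -3.20 ± 0.41, KANK2 at -2.31 ± 0.27, gypc at -2.24 ± 0.32, cobll1b at -2.1 ± 0.24, psat1, an enzyme of serine synthesis, at -1.94 ± 0.23, cxl34b.11, a chemokine gene, at -1.91 ± 0.21, kcnk18, a potassium channel gene, at -1.89 ± 0.17 and gabbr1a, a GABA receptor subunit gene, at -1.56 ± 0.18. KANK2 had levels of 7.09 and 6.67 in 142ab-/- myelomonocytes, against 9.62 and 9.11 in 142ab-/- WKMs, and in wild-type fish 6.65 and 6.63 in wild-type myelomonocytes, against 6.76 and 6.88 in wild-type WKMs. For psat1 the levels were 6.17 and 6.14 in 142ab-/- myelomonocytes, against 8.35 and 8.90 in 142ab-/- WKMs, and in wild-type fish 5.62 and 5.67 in wild-type myelomonocytes, against 6.23 and 6.11 in wild-type WKMs. For gabbr1a the change in 142ab-/- fish alone was not called. kcnk18 lay below the dim level in 3 of the 4 arrays of 142ab-/- fish. hpdb and cxl34b.11 each averaged above the dim level in 1 group alone, hpdb in wild-type WKMs and cxl34b.11 in 142ab-/- WKMs, and passed the filter on dim genes through that group. Their fitted differences, and those of il11b, socs1b and kcnk18, which had at least 1 group below the dim level, are not exact sizes. With all arrays kept, the call for gypc was lost with the mean of its probe sets and with quantile normalization. The call for cd22 was lost with quantile normalization, and that for moxd1 when each array was centred on its median over all probe sets. Of these 16 calls, 15 were lost without at least 1 array, 11 of them without 7 or 8 of the 8 arrays, and 1, that of hpdb, was kept under every alternative in which it was tested.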

How the results depend on the processing

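The number of genes called in 142ab-/- myelomonocytes minus 142ab-/- WKMs stayed within 1.5 times of 6076 under each alternative except a test against a 1.5-fold change (limma's treat), which called 1068, 242 higher and 826 lower, with 204 at least 2-fold higher. Keeping only genes above the 75th percentile of level gave 228 genes at least 2-fold higher and 624 lower. Centring each array on its median over the genes tested, an alternative chosen after seeing the data, gave 4583 higher calls against 2420 lower (65.4% higher, against 48.8% in the reported fit) and 560 at least 2-fold higher. For the difference of the changes, 24 genes were called with quantile normalization and 112 with a trended, robust variance, against 38. Without single arrays the calls ranged between 4088 and 5750 in all, 1806 and 2781 higher, 2282 and 2969 lower, 327 and 369 at least 2-fold higher, 957 and 1118 at least 2-fold lower, 2950 and 5293 in wild-type fish and 1 and 25 for the difference. In those fits the lone array was assumed to vary like the other groups. No called gene taken by the naming rule changed direction under any alternative run. The named genes counted next are all those that the rule took, printed in the text or not. The test against a 1.5-fold change is left out of these counts. An alternative whose filter dropped a gene was not counted for that gene. Of 297 named genes called in 142ab-/- fish, 262 kept their call under each alternative, 35 lost it without at least 1 array and 16 under another setting. The medians of 10 of 39 lists changed sign under at least 1 alternative, among them the Toll, integrin, complement, MHC class I and oxidative phosphorylation lists. The causes were not tested. The promoter motif search was not run, and no batch or scan data were used here.

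With the replicate number as a block within genotype, 6890 genes were called in 142ab-/- fish, and 6428 with a block across all arrays, while the difference was called for 254 and 77 genes. Across 13774 genes, the deviations of replicate 1 arrays from their group means were correlated between myelomonocytes and WKMs. The correlation was 0.27 in 142ab-/- and 0.41 in wild-type fish. With 2 arrays per group the replicate 2 deviations mirror these and add nothing. Nothing in the labels says what a number shares, so the numbers were not used as pairs, and whether same-numbered samples came from the same kidneys was not tested.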

Other observations

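Solute carrier genes, a set chosen after their values were seen and therefore given without a test, were 12.5% of the genes called at least 2-fold higher in 142ab-/- myelomonocytes. Of 296 genes whose symbol begins with slc and a digit, 44 were called at least 2-fold higher in 142ab-/- myelomonocytes than in 142ab-/- WKMs (14.9%, against 2.55% of all genes) and 26 lower (8.78%, against 7.38%). In the wild-type contrast 8 were at least 2-fold higher (2.7%) and 10 lower (3.38%). Their median log2 change was 0.21 in 142ab-/- fish and 0.10 in wild-type fish.

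Of 33 genes of cell death, 11 were called higher and 10 lower, against 21.5% and 22.6% of all genes, and the higher calls became 7 without 142ab-/- myelomonocytes replicate 1 and 4 without 142ab-/- WKMs replicate 2. bcl2l10, of the family that controls the mitochondrial path of death, fell by 2.50 on the log2 scale in 142ab-/- myelomonocytes, and bbc3, a promoter of that path, by 1.59. mcl1b, a relative that protects granulocytes in mammals, rose by 0.96 ± 0.12 and caspa, an inflammatory caspase gene, by 0.79 ± 0.12. Of 32 lysosomal genes 11 were called higher and 3 lower, with a median of 0.21. Without single arrays the higher calls became 5 (142ab-/- myelomonocytes replicate 1), 7 (142ab-/- WKMs replicate 1) and 4 (142ab-/- WKMs replicate 2), and the lower calls 1 (142ab-/- WKMs replicate 1). Among them were asah1a, an acid ceramidase gene, at 1.06 ± 0.15, ctss1, a cathepsin gene, at 1.02 ± 0.10 and ctsbb, another cathepsin gene, at -2.64 ± 0.19. Of 21 genes of the vacuolar proton pump 7 were called higher and 3 lower, with a median of 0.13, and the lower calls became 1 without either array of 142ab-/- myelomonocytes and 0 without 142ab-/- WKMs replicate 1. The lysosomal and proton pump counts likewise stand against 21.5% higher and 22.6% lower of all genes. atp6v1f changed by 0.73 ± 0.12 and atp6v0d1 by 0.68 ± 0.10.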
